A study of Homo sapiens with 6 samples.

Results

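The alpha-tubulin isotypes described here are the genes TUBA1A, TUBA1B, TUBA1C, TUBA4A and TUBA8, taken by symbol from a table of 78932 Ensembl gene identifiers. All 5 had a row in the table and all 5 had enough reads to be tested, among 18040 tested genes. Poly(A)-selected RNA from HCC1937, a triple-negative breast cancer cell line, was sequenced in 3 libraries of cells given 8 nM docetaxel for 24 h and in 3 control libraries. The labels call the libraries of a group biological replicates without naming separate cultures or days, so the tests below reflect spread among these libraries, which may be technical. They name no vehicle for the controls and no genetic change in either group, and all 6 libraries carry the label of this single cell line, several of whose usual epithelial markers were near 0 here (values below).

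Microtubules are hollow polymers of alpha- and beta-tubulin heterodimers. Docetaxel, a taxane, binds the beta subunit inside the polymer and stabilises it. Cells adjust tubulin mRNA to the pool of unpolymerised tubulin: when soluble tubulin is high, the factor TTC5 recognises the amino-terminal residues of a tubulin chain as it leaves the ribosome and, with SCAPER and the CCR4-NOT subunit CNOT11, has the mRNA degraded. The alpha chain also carries most of the modifications that mark stable microtubules, among them acetylation and removal and re-addition of a carboxy-terminal tyrosine. TUBA1B and TUBA1C are the broadly expressed isotypes of dividing cells, TUBA1A is best known from developing neurons, TUBA4A is broadly expressed and known from platelets and neurons, and TUBA8 is a divergent isotype.

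The beginning of the spliced coding sequence is shown because it encodes the residues read by TTC5. The first 30 coding bases of each principal transcript in GENCODE 29 (GRCh38) are given 5′ to 3′, with the first 4 codons in capitals.
TUBA1A: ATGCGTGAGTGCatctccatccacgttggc
TUBA1B: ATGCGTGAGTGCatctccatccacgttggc
TUBA1C: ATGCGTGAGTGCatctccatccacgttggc
TUBA4A: ATGCGTGAATGCatctcagtccacgtgggg
TUBA8: ATGCGGGAATGCatatcagtccacgtgggc
These 4 codons were identical in TUBA1A, TUBA1B and TUBA1C. TUBA4A and TUBA8 use other codons there, and all 5 genes encode the same peptide in this stretch.

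The end of the coding sequence is shown because it holds the codon of the terminal residue that the tyrosine cycle acts on. The last 30 bases of TUBA1C, TUBA4A and TUBA8 are given 5′ to 3′ with the stop codon, and the last sense codon is in capitals.
TUBA1C: gacggagaggatgagggtgaagagTATtaa
TUBA4A: tatgaggacgaggatgagggagaaGAAtaa
TUBA8: gaagaagaaaatgaaggggaggaaTTTtaa
TUBA1C ends on TAT, a tyrosine codon. TUBA4A ends on GAA, a glutamate codon, and TUBA8 on TTT, a phenylalanine codon. Over the whole coding sequence TUBA1A and TUBA1B were 97.2% identical in bases, TUBA1B and TUBA1C 96.8%, and TUBA1A and TUBA1C 95.9%. TUBA4A was 84.4% to 85.7% identical to these 3 genes, and TUBA8 80.0% to 81.9% identical to the other 4.

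TUBA1B (chromosome 12, 49127782 to 49131397, minus strand), TUBA1A (49184796 to 49189324, minus strand) and TUBA1C (49188736 to 49274603, plus strand) lie within 146.8 kb of each other, with positions from GENCODE 29 on GRCh38. TUBA1A and TUBA1C overlap at their ends on opposite strands. TUBA4A is on chromosome 2 (219249711 to 219278170, minus strand) and overlaps STK16, a kinase gene on the other strand. TUBA8 is on chromosome 22 (18110331 to 18146554, plus strand) and overlaps PEX26, a peroxisome assembly gene on the same strand. The principal transcripts used here have 4 exons in TUBA1A, TUBA1B, TUBA1C and TUBA4A and 5 in TUBA8.

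This arrangement bears on how reads can be counted. Windows of 150 bases, the length of a read, were looked up in all annotated transcripts on both strands. In TUBA1A 87.4% of windows occurred in no other gene, in TUBA4A 76.3%, in TUBA1C 76.1%, in TUBA1B 35.8% and in TUBA8 34.8%. The windows TUBA1B shared were of both kinds: 64.2% also occurred in the overlapping antisense gene TUBA1B-AS1, and 19.1% in TUBA1A or TUBA1C. TUBA1A and TUBA1C shared 6.91% and 6.77% of windows with genes elsewhere in the cluster. With a gene that overlaps it, TUBA1A shared 5.66% (TUBA1C) and TUBA1C 17.1% (the annotated gene AC125611.3). TUBA4A and TUBA8 shared 0% with genes elsewhere. Of TUBA4A windows 23.7% lie in STK16, and of TUBA8 windows 65.2% lie in PEX26 or the annotated gene AC008079.1. Neither the strand setting nor the rule for reads that match several genes is known here, so the levels of TUBA1B and TUBA8 in particular are uncertain.

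**Figure D1:**
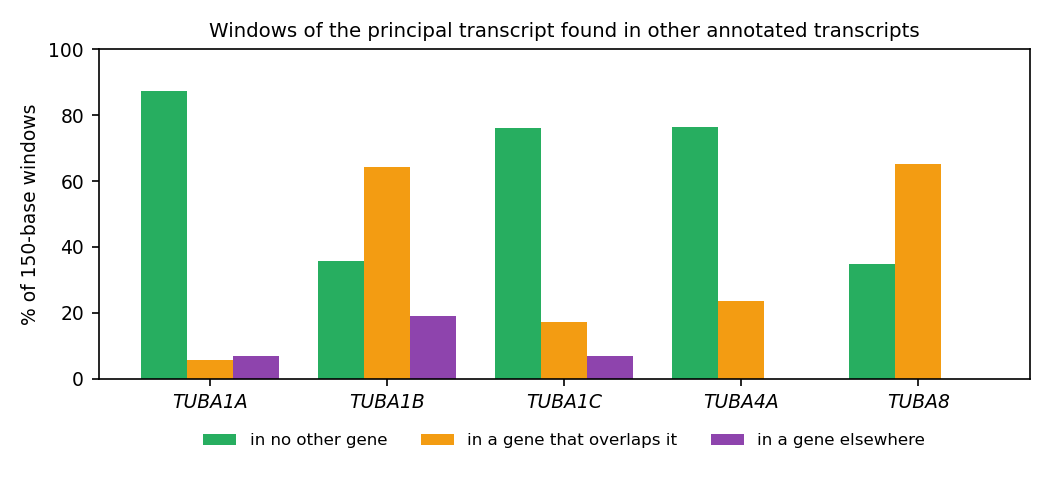
Percentage of 150-base windows of each gene's principal transcript (vertical axis) that occur in no other annotated gene, in a gene that overlaps it in the genome, or in a gene elsewhere. TUBA1B and TUBA8 have the lowest percentages in no other gene, 35.8% and 34.8%, and a window can count in both shared classes.

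Library totals ranged from 38622062 to 41675186 counts, and a count of 0 allows up to 3 counts, 0.0720 to 0.0777 CPM (counts scaled to a common library size), for counting error only. The keratin KRT8 averaged 2127 ± 34 CPM with docetaxel and 1812 ± 61 CPM in control (SD, n = 3 each), but EPCAM, KRT19, KRT5, KRT14, CLDN3 and ESRP1, which also mark epithelial lines, had too few reads to test, at 0.0174 to 0.128 CPM on average, which goes against the label of a breast epithelial line. Of the same list, CDH1 averaged 0.692 CPM over the 6 libraries, GATA3 4.57 CPM and ELF3 45.9 CPM. The summed level of the 11 epithelial markers was 2840 to 2900 CPM in docetaxel libraries and 2430 to 2530 CPM in control libraries. Nearly all of it came from KRT8 and KRT18, at 1970 and 667 CPM on average over the 6 libraries. Of the 5 tested markers 3 rose, KRT8, KRT18 and ELF3, and 0 fell, where 9.14% of all tested genes were higher and 7.82% lower. KRT8 alone was called once GC and length offsets were used, where 2.28% of all tested genes were higher. With so few markers these counts are no result about them as a group. Of markers of other cells, the 6 of fibroblasts summed to 145 to 151 CPM with docetaxel and 139 to 144 CPM in control, nearly all from COL1A1. PDGFRB averaged 4.57 CPM over the 6 libraries, and COL1A2, COL3A1, DCN and LUM at most 0.166 CPM. The 5 leukocyte markers summed to 2.78 to 4.25 CPM with docetaxel and 1.74 to 2.62 CPM in control, with PTPRC and CD3E near 0 and CD14 called higher by edgeR but not by DESeq2, limma-voom or edgeR with offsets, and the 4 endothelial markers to 2.81 to 3.55 CPM with docetaxel and 2.03 to 2.93 CPM in control. The 5 neuronal markers, which include TUBB3, summed to 38.0 to 41.9 CPM with docetaxel and 40.2 to 47.1 CPM in control, mostly from SNAP25. The part of these differences in the tubulin results was not tested.

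The comparison of docetaxel with control asks here how the mRNA of each alpha-tubulin isotype stood after 24 h of a drug that acts on the tubulin polymer. TUBA1A, TUBA1B, TUBA1C and TUBA4A rose, TUBA1A by 1.32-fold and the other 3 by 1.15-fold to 1.16-fold, and TUBA8 stayed near 0.5 CPM in both groups. These 4 of 5 genes were called higher and 0 lower by edgeR's quasi-likelihood test at an adjusted p under 0.05, where 9.14% of all tested genes were higher and 7.82% lower. DESeq2 and limma-voom also called 4, but offsets for GC content and gene length left 2, TUBA1A and TUBA1C. Over the 5 isotypes the median log2 fold change came to 0.21, beside 0.01 over all tested genes, and with offsets to 0.10, beside 0.0045. In bulk RNA from a culture, more cells of a type and more RNA per cell cannot be told apart.

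TUBA1A had 27.48, 27.02 and 28.44 CPM in docetaxel libraries, against 20.2, 21.1 and 21.3 CPM in control libraries. Every docetaxel library lay above every control library, with a gap wider than the spread within either group. The means were 27.7 ± 0.7 CPM with docetaxel and 20.9 ± 0.6 CPM in control (SD, n = 3 each), from 1030 to 1098 reads and 795 to 899 reads per library. On the log2 scale this is a rise of 0.41 ± 0.08 (SE, adjusted p = 0.000456 by edgeR), and the 95% interval runs from 1.19-fold to 1.48-fold. TUBA1A was the least abundant of the 4 isotypes that rose.

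TUBA1B had 315.1, 347.6 and 332.3 CPM with docetaxel and 282.8, 283.0 and 299.3 CPM in control. The groups did not overlap, and control replicate 3 and docetaxel replicate 1 came closest to each other. It rose by 0.20 ± 0.04 on the log2 scale (SE, adjusted p = 0.00101 by edgeR), a 95% interval of 1.08-fold to 1.22-fold, and differed by 0.10 with offsets, where it was not called (adjusted p = 0.0946 by edgeR). TUBA1B-AS1, the gene antisense to it, had only 13, 45 and 23 reads with docetaxel and 46, 43 and 17 reads in control.

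TUBA1C had the most reads of the family. It reached 388.8, 369.3 and 393.4 CPM in docetaxel libraries, against 334.4, 327.5 and 335.7 CPM in control libraries, again with no overlap. It rose by 0.21 ± 0.04 on the log2 scale (SE, adjusted p = 0.000423 by edgeR), a 95% interval of 1.09-fold to 1.22-fold. Control replicates 1 to 3 differed among themselves by much less than the docetaxel libraries stood above them.

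TUBA4A, which ends on a glutamate codon, had 170.8, 180.9 and 190.8 CPM with docetaxel and 158.6, 154.7 and 155.5 CPM in control. All docetaxel libraries were above all control libraries, with a wider spread among the docetaxel libraries (SD 10.0 CPM) than among the controls (SD 2.1 CPM, n = 3 each). This is a rise of 0.21 ± 0.04 on the log2 scale (SE, adjusted p = 0.00116 by edgeR), a 95% interval of 1.09-fold to 1.23-fold. With offsets the difference was 0.07 and was not called (adjusted p = 0.369 by edgeR). STK16, which overlaps it, also rose, by 1.27-fold, at 23.7 CPM with docetaxel and 18.7 CPM in control (edgeR adjusted p = 0.00465). Its call was lost once library GC and length trends were removed (edgeR adjusted p = 0.0569). Reads of the shared stretch could be assigned to either gene or to none. TUBA4B, a TUBA4A relative on the opposite strand, had 4 to 14 reads per library with docetaxel and 4 to 15 in control.

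TUBA8 had 18, 21 and 19 reads with docetaxel and 16, 28 and 19 reads in control, with groups that overlapped. These are 0.50 ± 0.04 CPM with docetaxel and 0.51 ± 0.13 CPM in control (SD, n = 3 each), far below the other isotypes. Its difference on the log2 scale was -0.02 ± 0.48 (SE, adjusted p = 0.989 by edgeR), and the 95% interval, from 0.501-fold to 1.95-fold, includes the folds of the other 4 genes. At this depth no change was detectable in TUBA8, where a fold of the size seen in TUBA1A lies inside the interval. PEX26, which covers much of the gene, had 54.8 CPM with docetaxel and 55.0 CPM in control.

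**Figure D2:**
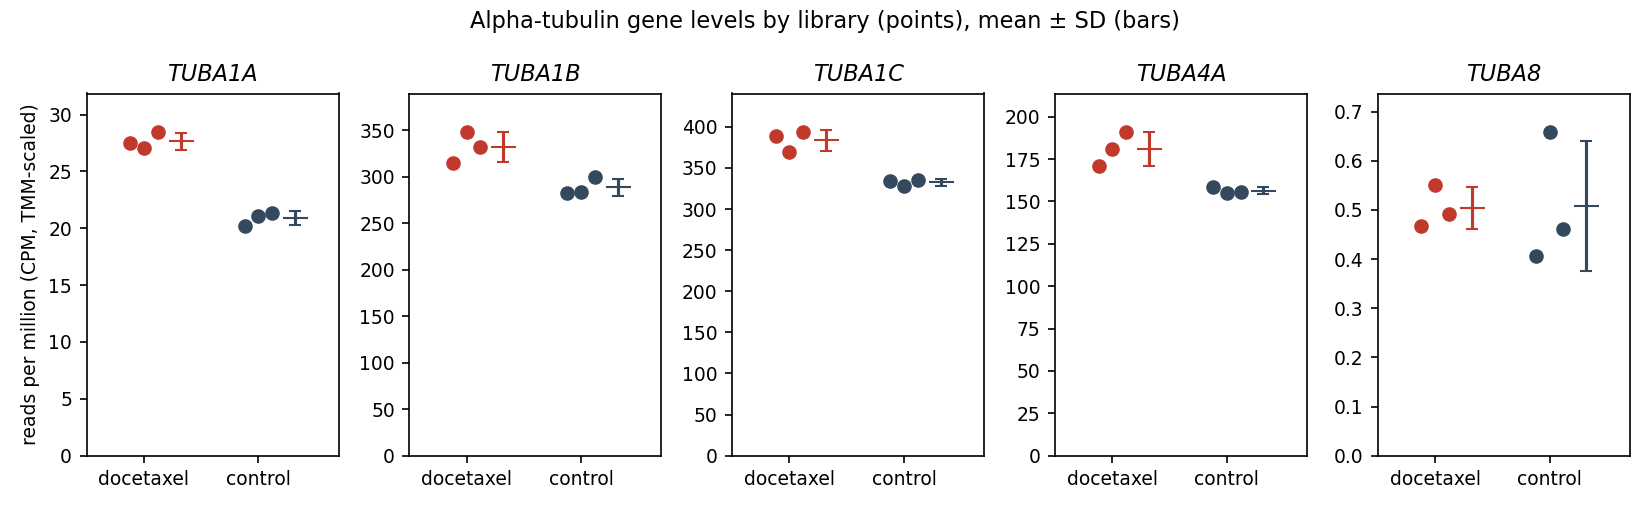
TMM-scaled CPM (vertical axes, each starting at 0) of each alpha-tubulin gene in the 3 docetaxel and 3 control libraries, with the mean and SD of each group as bars beside the points. The groups are separate in TUBA1A, TUBA1B, TUBA1C and TUBA4A and overlap in TUBA8.

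In 4 of the 5 isotypes every docetaxel library stood above every control library, as was so in 17.0% of all tested genes. They are the same 4 genes that were called higher, so this is no separate result. Genes with GC-rich transcripts were called higher more often than others in these libraries. In the third quintile of genes by transcript GC content, which holds TUBA1A (51.8% GC) and TUBA1C (51.6%), 3.65% of genes were called higher and the median log2 fold change was 0.01. In the fourth quintile, which holds TUBA1B (54.7%), TUBA4A (57.8%) and TUBA8 (56.3%), 13.6% were called higher and the median was 0.10. With offsets for GC content and gene length in each library, 2.28% of tested genes were called higher, and 2 of the 5 isotypes, TUBA1A and TUBA1C. TUBA1A then had a log2 fold change of 0.35 (edgeR adjusted p = 0.00291) and TUBA1C 0.16 (edgeR adjusted p = 0.00286). TUBA1B and TUBA4A did not pass then, with the values given above, and TUBA8 was at -0.13 (edgeR adjusted p = 0.943). A GC trend that differs between libraries of the groups and an effect of docetaxel on GC-rich genes cannot be told apart.

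**Figure D3:**
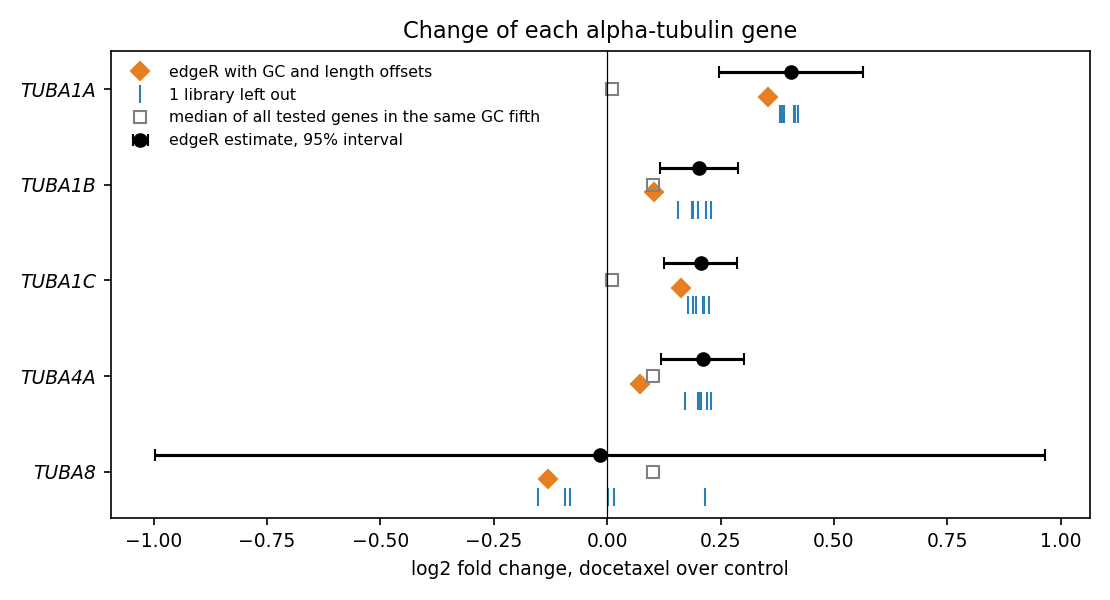
Log2 fold change of docetaxel over control (horizontal axis) for each alpha-tubulin gene: edgeR's estimate with its 95% interval, the estimate with GC and length offsets, the estimates with 1 library left out, and the median of all tested genes in the same quintile of GC content. The quintile medians come from the fit without offsets, where TUBA1A, TUBA1B, TUBA1C and TUBA4A lay to the right of them. With offsets TUBA1A and TUBA1C were at 0.35 and 0.16, and TUBA1B and TUBA4A at 0.10 and 0.07. The median over all tested genes with offsets was 0.0045.

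Levels of different genes were compared per length, as CPM per kilobase of the deposited gene length (RPKM). TUBA1B was highest, at 92.8 ± 4.5 RPKM with docetaxel and 80.7 ± 2.6 RPKM in control (SD, n = 3 each). TUBA1C followed at 86.2 ± 2.9 and 74.7 ± 1.0 RPKM, TUBA4A at 48.9 ± 2.7 and 42.3 ± 0.6 RPKM, and TUBA1A at 6.80 ± 0.18 and 5.13 ± 0.15 RPKM, each with the docetaxel value before the control value. TUBA8 was lowest, at 0.0929 ± 0.0079 RPKM with docetaxel and 0.0937 ± 0.0244 RPKM in control. TUBA1B and TUBA1C overlapped among the docetaxel libraries, from 88.2 to 97.3 RPKM for TUBA1B and from 82.9 to 88.3 RPKM for TUBA1C, and did not overlap among the control libraries. All other neighbours in this order were separate in every library.

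TUBA1B was above TUBA1C with either length, and their order turned round when reads were not divided by a length. By reads alone TUBA1C held 41.5% of the alpha-tubulin reads with docetaxel and 41.6% in control, and TUBA1B 35.9% with docetaxel and 36.1% in control. Per length of the principal transcript TUBA1B held 47.4% with docetaxel and 47.7% in control, and TUBA1C 29.8% in both groups. TUBA4A stayed between 19.4% and 20.8% and TUBA1A between 2.53% and 3.36% on these 3 scales.

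The makeup of the alpha-tubulin pool by RPKM was nearly the same in the groups. TUBA1A made up 2.96%, 2.82% and 2.91% of it in docetaxel libraries, against 2.45%, 2.60% and 2.54% in control libraries. That was the only isotype whose share did not overlap between the groups (exact two-sided permutation p = 0.1, the smallest that 3 libraries against 3 allow, and 0.5 adjusted over the 5 isotypes). TUBA1B averaged 39.5 ± 1.5% with docetaxel and 39.8 ± 0.7% in control, TUBA1C 36.7 ± 1.5% and 36.8 ± 0.3%, and TUBA4A 20.8 ± 0.7% and 20.8 ± 0.4% (SD, n = 3 each, docetaxel before control). TUBA8 was 0.0395% of the pool with docetaxel and 0.0463% in control. For these 4 isotypes the exact permutation p ran from 0.7 to 1.0.

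Whether isotypes changed by different amounts was tested on the log2 ratio of their reads in each library, for 10 pairs. The ratio of TUBA1A to TUBA1B was higher with docetaxel by 0.20, that to TUBA1C by 0.20 and that to TUBA4A by 0.20, and in these 3 pairs the groups did not overlap. Each had an exact two-sided permutation p of 0.1, the smallest possible, and 0.333 adjusted over the 10 pairs, a design in which no pair can pass 0.05. Among TUBA1B, TUBA1C and TUBA4A the ratios differed between the groups by -0.01, -0.01 and -0.00 on the log2 scale, with overlapping groups and exact permutation p of 0.9 to 1.0. Ratios to TUBA8 were higher with docetaxel by 0.19 to 0.39, with SDs of 0.34 to 0.38 in control and overlapping groups.

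**Figure D4:**
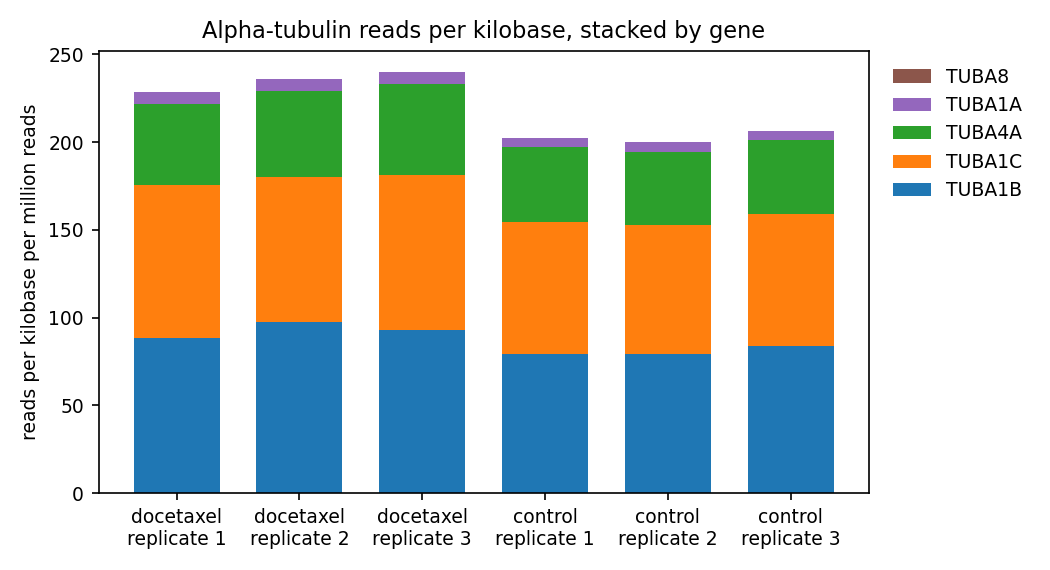
RPKM (vertical axis) of the 5 alpha-tubulin genes stacked for each docetaxel and control library. The stacks reach 228.5 to 240.0 in docetaxel libraries and 199.9 to 206.5 in control libraries, with nearly the same proportions, and TUBA8 is too low to see.

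Summed over the 5 isotypes, alpha-tubulin mRNA was 902.7, 925.4 and 945.4 CPM in docetaxel libraries and 796.4, 787.0 and 812.3 CPM in control libraries, a ratio of means of 1.16. The 9 beta-tubulin genes summed to 2587 ± 96 CPM with docetaxel and 2329 ± 25 CPM in control (SD, n = 3 each). Per length, beta exceeded alpha by 3.51, 3.57 and 3.58 times in docetaxel libraries and by 3.62, 3.71 and 3.64 times in control libraries. These sums are a description with no test, and the part of the windows that TUBA1B shares with other genes in the alpha sum was not tested.

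The promoter windows of TUBA1B, the highest isotype per length, and TUBA8, the lowest, are shown as RefSeq gives them on GRCh38.p14, 250 bases up to the annotated start, 5′ to 3′ on the gene's strand. Capitals mark matches, on either strand, to the GC box GGGCGG, the only motif of those searched that either window held.
TUBA1B, chr12:49131396-49131645, minus strand: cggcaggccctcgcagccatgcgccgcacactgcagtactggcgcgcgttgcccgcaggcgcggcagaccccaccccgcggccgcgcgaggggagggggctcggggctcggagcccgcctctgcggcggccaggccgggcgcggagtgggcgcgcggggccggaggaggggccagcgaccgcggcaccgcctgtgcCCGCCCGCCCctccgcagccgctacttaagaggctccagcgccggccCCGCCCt
TUBA8, chr22:18110559-18110808, plus strand: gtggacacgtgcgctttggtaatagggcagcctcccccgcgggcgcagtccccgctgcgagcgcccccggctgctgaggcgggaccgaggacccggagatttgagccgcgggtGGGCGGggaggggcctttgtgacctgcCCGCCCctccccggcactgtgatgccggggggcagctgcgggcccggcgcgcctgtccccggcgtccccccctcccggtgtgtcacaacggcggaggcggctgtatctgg
The TUBA1B window had 3 matches, of which a pair overlap, and the TUBA8 window had 2. TUBA4A had 4, TUBA1C 2 and TUBA1A 0, and 42.6% of 35116 such windows held at least 1. The CCAAT box CCAAT was found in TUBA1A, with 2 matches, and TUBA1C, with 1, and in 11240 of the 35116 windows. TTTGAA, the core of the CHR element of cell cycle genes, had 2 matches in TUBA1C and was in 13.3% of all windows. TATAAA, the AP-1 motif TGANTCA and the cAMP response half-site TGACG were in 10.7%, 6.57% and 21.2% of all windows and had 0 matches in the 5 genes. The windows of TUBA1A, TUBA1C and TUBA4A are not shown, since they reach 114 to 244 bases into the GENCODE transcript used above. The TUBA8 window reaches 16 bases into its transcript and lies within PEX26. GC content was 81.2% in the TUBA1B window and 75.2% in that of TUBA8, beside a median of 58.0%.

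The other alpha-tubulin genes were nearly silent. TUBA3D had 11, 16 and 7 reads with docetaxel and 12, 15 and 12 in control, and did not pass the test (log2 fold change -0.10 ± 0.60, SE, edgeR adjusted p = 0.947). TUBA3C had 2, 2 and 4 reads with docetaxel and 0 in each control library, TUBA3E 1, 0 and 2 reads with docetaxel and 5, 0 and 0 in control, and TUBAL3 0, 0 and 2 reads with docetaxel and 0 in control, all too few to test. The 17 rows of alpha-tubulin pseudogenes and TUBA4B together held 457 reads over the 6 libraries, beside 204897 in the 5 isotypes.

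Neighbouring genes were read beside each locus. LMBR1L, next to the cluster on chromosome 12, had a log2 fold change of 0.10 and PRPH, which encodes the intermediate filament peripherin, on its other side 0.02, and neither passed (edgeR adjusted p of 0.421 and 0.983). Next to TUBA4A, DNAJB2, a co-chaperone, was at 0.23 and GLB1L at -0.31 (edgeR adjusted p of 0.0742 and 0.288). Next to TUBA8, USP18, an interferon-induced protease, was at -0.04 (edgeR adjusted p = 0.891) and MICAL3 at 0.21 (edgeR adjusted p = 0.248).

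Beta-tubulins pair with the alpha chains and hold the docetaxel site. Of 7 tested, 4 rose and 0 fell, where 9.14% of all tested genes rose and 7.82% fell. TUBB4B rose 1.18-fold, TUBB2A 1.42-fold, TUBB6 1.14-fold and TUBB, the most abundant at 1645 CPM with docetaxel and 1528 CPM in control, 1.08-fold (edgeR adjusted p from 7.01e-05 to 0.0368). With GC and length offsets 1 of them, TUBB2A, was called higher, beside 2.28% of all tested genes. Of the gamma-, delta- and epsilon-tubulins, which serve nucleation and centrioles, 1 of 4 rose and 0 fell, against that same 9.14% and 7.82%. This was TUBG1, at 259.2 CPM with docetaxel and 231.8 CPM in control, and with offsets it was not called while TUBE1 was.

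Folding cofactors assemble the heterodimer from the released chains. Of 7 tested, 3 rose and 0 fell, again beside 9.14% higher and 7.82% lower over all genes. They were ARL2, a small GTPase that works with cofactor D, at 1.20-fold, TBCD, cofactor D itself, at 1.13-fold, and TBCB, which binds alpha-tubulin, at 1.10-fold. TBCA, a beta-tubulin chaperone, had a log2 fold change of -0.10 (edgeR adjusted p = 0.132). With offsets 0 of the 7 were called by edgeR, where 411 of all 18040 tested genes were higher and 315 lower.

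None of the 3 genes of tubulin mRNA autoregulation passed edgeR's test, where 9.14% of all tested genes were higher and 7.82% lower. With 3 genes this count is no result about the group. Of the 3, 1 had an unadjusted p under 0.05, 1 was called by DESeq2 and 0 by limma-voom. CNOT11 had 68.9 ± 4.1 CPM with docetaxel and 76.4 ± 2.8 CPM in control (SD, n = 3 each), which is -0.15 on the log2 scale (edgeR adjusted p = 0.0575). With GC and length offsets it was called lower (edgeR adjusted p = 0.0409), as were 315 of all 18040 tested genes. TTC5 had 11.02 CPM with docetaxel and 10.65 CPM in control, and SCAPER 9.04 CPM with docetaxel and 9.83 CPM in control.

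Among 16 tested enzymes that modify alpha-tubulin, 1 rose, 1 fell and 14 did not pass. These counts are near the 9.14% higher and 7.82% lower over all tested genes and are no result about the enzymes as a group. SIRT2, a tubulin deacetylase, rose 1.18-fold, to 57.3 CPM with docetaxel against 48.4 CPM in control. VASH2, a tubulin detyrosinase, fell by 0.86 on the log2 scale, to 1.73 ± 0.17 CPM with docetaxel against 3.13 ± 0.44 CPM in control (SD, n = 3 each, edgeR adjusted p = 0.00747), and with offsets neither was called. TTL, the ligase that puts the tyrosine back, had 84.2 CPM with docetaxel and 83.2 CPM in control. HDAC6, the main tubulin deacetylase, and AGTPBP1, which trims glutamates, were at log2 fold changes of 0.13 and -0.11 (edgeR adjusted p of 0.222 and 0.351). STMN1, which sequesters tubulin dimers, had 240.3 CPM with docetaxel and 249.5 CPM in control. Of the 2 tested stathmins 0 were called by edgeR, DESeq2 or limma-voom, with 0 at an unadjusted p under 0.05. These are too few genes to set beside the shares over all tested genes.

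Over the 6 libraries the 4 isotypes that rose followed each other, with Pearson's r of log2 CPM between 0.81 and 0.97, and r with TUBA8 lay between -0.14 and 0.08. These points share the library and the group, so the group difference alone gives high values. Among 10354 other genes with a symbol and at least 5 CPM, 10.4% had r above 0.9 with the summed alpha-tubulin level. The 5 closest were ARF1, ULK1, ITGA3, TKT and COL5A1, with r of 0.997 to 0.999. Closest to TUBA1A were PDE2A and SPTAN1, to TUBA1B AUP1 and IFT172, to TUBA1C AMH and ZFP41, and to TUBA4A TRIM16L and METTL13, with r of 0.996 to 0.998. ZNF264 and TRMT10B were closest to TUBA8, at 0.978 and 0.977, where TUBA8 had only 16 to 28 reads per library. All genes named here were picked as the highest of 10354 over only 6 libraries, so their r is a description with no test.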

How the data were processed

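Poly(A) RNA of 6 libraries was measured as paired-end reads on a NovaSeq, as the labels state. The authors deposited raw read counts per gene, with a gene length, made with featureCounts 2.0.1 (reports by MultiQC 1.11) against GRCh38, per the submitters' processing notes. Not given in the sources used here are the aligner, how multi-mapped reads and strand were handled, and which annotation was used. Columns were matched to samples by library name. Symbols matched 42179 rows and GENCODE 29 positions 57356.

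The whole table was fitted with edgeR 4.0.16 in R 4.3.3 (filterByExpr, TMM, estimateDisp, robust glmQLFit, glmQLFTest, two-sided), with Benjamini-Hochberg adjustment over 18040 genes and calls at an adjusted p under 0.05. Standard errors were set so that they match each test's p. CPM are TMM-scaled counts. Shares and ratios were compared by exact permutation tests (scipy 1.17.1). Coding identity came from global alignment (Biopython 1.88). The fits were also run on simulated counts that had the same dispersion for every gene and no GC or length trend. That run cannot speak to the GC trend in these libraries, and its outcome is not reported here. Offsets came from a loess fit (span 0.5), in each library, of the deviation in log2 CPM on transcript GC content and log2 gene length.

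The alternatives tried were DESeq2 1.42.0, limma-voom 3.58.1, scaling by RLE, by upper quartile or by library size, other filters, the replicate number as a block, the offsets, and leaving out each library. Genes were named by a rule: the isotypes and other alpha-tubulins, up to 4 genes of each tubulin list by smallest p, the neighbours, and the genes most alike over the 6 libraries. TTL and the marker genes were named after their values were seen. The members and lists were chosen with earlier results of these data known. Sequences of proteins were not used here. The coding ends of some isotypes are not reported here.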

Additional observations from a re-analysis of the deposited data

How the results depend on the processing

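TUBA1A and TUBA1C were called higher under all 16 alternatives, with log2 fold changes of 0.35 to 0.42 and 0.16 to 0.22 (edgeR, DESeq2 or limma adjusted p at most 0.00911 and 0.0133). TUBA1B and TUBA4A were called under 14 and lost the call with GC and length offsets, at 0.10 and 0.0719, and with those offsets and the replicate block together, at 0.10 and 0.071 (edgeR adjusted p of 0.152 and 0.451), so that 2 of the 5 isotypes were called higher in each of these fits. The number of isotypes called lower was 0 throughout. TUBA8, at -0.02, changed sign with limma-voom (0.0087) and the replicate block (0.0066).

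Over all genes, 1649 were higher and 1410 lower. Scaling by library size alone gave 1096 higher, offsets gave 411 higher and 315 lower, and offsets with the block gave 276 and 215. Leaving out 1 library gave 990 to 1397 higher and 740 to 1841 lower, with the higher count moved by over 1.5 times without docetaxel replicate 2 (1089) or 3 (1056) or control replicate 2 (990) and the lower count without docetaxel replicate 3 (768) or control replicate 2 (740). In all fits that left out 1 library, 4 isotypes were called higher. Across them TUBA1A ranged from 0.38 to 0.42, TUBA1B from 0.16 to 0.23, TUBA1C from 0.18 to 0.22, TUBA4A from 0.17 to 0.23 and TUBA8 from -0.15 to 0.22.

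Leaving out 1 library, the difference in pool share ranged from 0.327 to 0.405 percentage points for TUBA1A, from -1.10 to 0.221 for TUBA1B, from -0.833 to 0.691 for TUBA1C, from -0.361 to 0.283 for TUBA4A and from -0.0114 to 0.00047 for TUBA8. The difference in log2 ratio ranged from -0.067 to 0.0408 for TUBA1B over TUBA1C, -0.041 to 0.0296 for TUBA1B over TUBA4A, -0.0528 to 0.026 for TUBA1C over TUBA4A, -0.0286 to 0.32 for TUBA1B over TUBA8, -0.0213 to 0.34 for TUBA1C over TUBA8 and -0.0148 to 0.35 for TUBA4A over TUBA8. TUBA1A over TUBA8, at 0.39, ranged from 0.20 to 0.51, and each of these 4 ratios to TUBA8 was lowest without control replicate 2. The TUBA1A share kept its sign with the principal transcript length, an alternative added after seeing the data. The cause of these changes was not tested.

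Same-numbered libraries did not deviate together (r of -0.04, -0.06 and 0.02 across genes), so the numbers were not taken as pairs, and the replicate block alone gave 1283 genes higher and 1106 lower with 4 isotypes called. Not every library correlated best with its own number. The depth limits TUBA8, TUBA3C, TUBA3D, TUBA3E and TUBAL3, where no change of modest size could be seen.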
